A study of Rattus norvegicus with 3 samples.

Results

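The semaphorins, their plexin receptors and the neuropilins were measured cell by cell in the cerebral cortex of rat embryos. Members were all features whose gene symbol is a semaphorin of classes 3 to 7, a plexin of classes A to D, or neuropilin 1 or 2. This gave 31 of the 29772 genes counted: 20 semaphorins, 9 plexins and 2 neuropilins. Cortical cells of wild-type rat embryos, freshly prepared and dissociated with papain per the labels, were profiled in 3 droplet libraries labelled embryonic day 14, 16 and 18 (E14, E16 and E18), with 1 library per label. The number, litter and strain of the embryos behind each library are not given in the sources used here. The labels' extraction text also describes cultured, frozen, multiplexed and sorted human cells, and which of those steps applied to these libraries is not given either. Depth was 62740631 to 80974234 unique molecular identifiers (UMIs) per library. Cells with at least 1000 genes and at most 10% mitochondrial UMIs were kept, and after removal of likely doublets 4286, 4977 and 5431 cells remained in label order.

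Without a second library per label no difference has a replicate check, so no test was made. Levels are given as UMIs per 1000000 UMIs of a class (CPM), and ranges in parentheses are exact 95% intervals that cover counting error only. Stage genes placed the library labelled E16 earliest, then E18, then E14. In radial glia, all 7 measured genes of an early list were higher under label E16 than under label E14, and all 12 measured genes of a late list were lower. Between labels E18 and E16 they ran with the labels, with 6 of 7 early genes lower and 9 of 10 late genes higher under E18. Between labels E18 and E14 they ran against them, with 6 of 7 early genes higher and 10 of 12 late genes lower under E18. Embryonic globins were 2.57%, 67.4% and 22% of globin UMIs in label order. Whether labels were exchanged cannot be told from these files. Each direction below is therefore between libraries as labelled, and age, litter and preparation cannot be told apart. The libraries shared 17, 13 and 12 cell barcodes pair by pair.

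Cells were grouped into 26 clusters without using the member genes, and clusters were named from marker lists. Named classes held 397, 2890 and 1742 radial glia in label order, the stem cells that line the ventricle. There were 473, 424 and 1213 intermediate progenitors, which divide to make neurons. Of these, 292, 74 and 626 were in cluster 5 and the others in clusters 10 and 15. Levels of that class by label thus rest on different mixes of clusters. Newborn excitatory neurons numbered 1334, 5 and 1749. Maturing excitatory neurons numbered 1977, 1 and 403. The library labelled E16 thus had almost no named excitatory neurons. Its 601 cells in cluster 11 stand in for them below. They are given under the cluster's number or, in values listed by label, as the neurons labelled E16. Cluster 11 raised 6 of 8 newborn neuron markers. It was left unnamed because the Cajal-Retzius marker Calb2 and the mural marker Ndufa4l2 were among its leading genes, and no newborn neuron marker was. The other leading genes were Calb1, Ebf1, Lhx9, Nxph4, Ebf2, Nhlh2, Cntnap2 and Ppp1r14a. Cajal-Retzius markers summed to 354 CPM in cluster 11, against 10.3 CPM in newborn neurons labelled E14 and 11.3 CPM in those labelled E18.

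Semaphorins are guidance proteins that steer axons, migrating neurons and vessels. Class 3 members are secreted, classes 4 to 6 span the membrane, and class 7 is held by a lipid anchor. Most bind plexins, whose cytoplasmic part acts on small GTPases and thereby on the cytoskeleton. Most class 3 semaphorins need a neuropilin to bind and a class A plexin to signal, whereas Sema3e binds Plxnd1 directly. In the cortex the family is known for repelling and attracting the axons and dendrites of pyramidal neurons and for guiding migrating cells.

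The members that differed at least 2-fold in the same direction between excitatory neurons and radial glia in every library (below) are the ones whose promoters are printed here. The table of RefSeq promoters used here held 7 of these 10 genes and 23 of the 31 members. Plxna4, Sema4g and Sema5a are named only. Each line gives the 250 bases before the RefSeq start, 5′ to 3′ on the gene's strand, in the build GRCr8, which is not the build used for counting. Capitals mark CAGCTG (an E-box, the letters bound by basic helix-loop-helix factors) and GGGCGG or its reverse complement CCGCCC (a GC box).
Nrp1 (chr19:73256307-73256556, plus strand): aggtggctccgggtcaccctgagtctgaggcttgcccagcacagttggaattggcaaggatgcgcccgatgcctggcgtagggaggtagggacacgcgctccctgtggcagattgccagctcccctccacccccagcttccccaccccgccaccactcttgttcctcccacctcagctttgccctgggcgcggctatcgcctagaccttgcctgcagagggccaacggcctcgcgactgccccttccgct
Nrp2 (chr9:71617004-71617253, plus strand): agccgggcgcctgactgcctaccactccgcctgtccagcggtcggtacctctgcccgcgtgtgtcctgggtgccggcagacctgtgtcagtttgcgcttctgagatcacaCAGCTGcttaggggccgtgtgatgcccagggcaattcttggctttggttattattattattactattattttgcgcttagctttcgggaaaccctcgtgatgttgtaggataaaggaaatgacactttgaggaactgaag
Plxna2 (chr13:108691280-108691529, plus strand): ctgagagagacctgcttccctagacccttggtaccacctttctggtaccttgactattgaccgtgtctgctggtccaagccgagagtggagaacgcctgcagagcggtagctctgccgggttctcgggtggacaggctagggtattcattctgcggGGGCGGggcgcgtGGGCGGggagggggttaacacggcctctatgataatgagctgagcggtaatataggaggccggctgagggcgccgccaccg
Plxna3 (chrX:157266857-157267106, plus strand): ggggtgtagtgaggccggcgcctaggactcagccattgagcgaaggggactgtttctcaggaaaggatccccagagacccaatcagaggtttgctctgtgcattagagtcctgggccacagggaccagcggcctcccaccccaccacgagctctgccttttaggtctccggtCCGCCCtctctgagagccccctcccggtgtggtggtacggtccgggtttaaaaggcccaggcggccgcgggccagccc
Sema6c (chr2:185426236-185426485, plus strand): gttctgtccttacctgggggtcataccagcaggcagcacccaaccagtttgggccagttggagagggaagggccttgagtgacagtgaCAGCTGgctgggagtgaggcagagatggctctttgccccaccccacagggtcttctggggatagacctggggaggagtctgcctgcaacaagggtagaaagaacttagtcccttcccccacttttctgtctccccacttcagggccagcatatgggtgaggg
Sema6d (chr3:132337106-132337355, plus strand): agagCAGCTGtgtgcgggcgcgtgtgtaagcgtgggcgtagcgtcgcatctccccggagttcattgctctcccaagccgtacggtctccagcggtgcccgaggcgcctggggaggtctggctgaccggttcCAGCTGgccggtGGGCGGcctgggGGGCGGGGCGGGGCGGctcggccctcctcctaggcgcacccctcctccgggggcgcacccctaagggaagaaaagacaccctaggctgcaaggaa
Sema5b (chr11:78730590-78730839, minus strand): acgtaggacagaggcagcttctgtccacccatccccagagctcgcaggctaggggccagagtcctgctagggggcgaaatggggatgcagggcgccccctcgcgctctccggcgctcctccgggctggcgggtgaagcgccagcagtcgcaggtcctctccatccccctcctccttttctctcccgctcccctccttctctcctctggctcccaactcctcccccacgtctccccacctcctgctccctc
The 6 genes above Sema5b were higher in neurons, and Sema5b was higher in radial glia. Both strands were also searched for another E-box, spelled CAGATG. The TATA box was searched for as TATAAA, likewise on both strands. The letters CAGCTG were in 3 of the 7 windows (Nrp2, Sema6c and Sema6d), against 12% of 33465 RefSeq promoters. GGGCGG was in 3 of the 7 (Plxna2, Plxna3 and Sema6d), against 30.5% of all. In Sema6d, 3 of the 4 GGGCGG matches follow each other and share a base. CAGATG and TATAAA were in none of the 7, and in 14% and 12.9% of all promoters. The Nrp1 and Sema5b windows held none of these letters. G and C made up 52.8% (Nrp2) to 70.4% (Sema6d) of these windows, against a median of 51.2% over all promoters. These matches describe the sequence only.

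The main contrast was that of excitatory neurons with radial glia within each library, where both classes share preparation and sequencing. Nrp1, Nrp2, Plxna2, Plxna3, Plxna4, Sema4g, Sema6c and Sema6d were at least 2-fold higher in neurons in all 3 libraries. Sema5a and Sema5b were at least 2-fold lower. A gene counted where log2 of CPM + 1 differed by at least 1 and the average of both groups was at least 5 CPM. This minimum was met in every library by 21 of the 31 members, and a gene high in only 1 of the groups can meet it through that group. The 8 members higher in neurons stand beside 8.95% of 9488 genes tested, and the 2 lower beside 12.2%. Of the 9 receptors tested, 5 were higher and 0 were lower. Of the 12 semaphorins tested, 3 were higher and 2 were lower. The median log2 ratio over libraries was 0.74 for the 21 members and -0.11 for all genes tested. Without the library labelled E16 the count was 9 higher, Sema3c being added, and 3 lower, Plxnc1 being added. At a minimum of 20 CPM it was 4 higher (Nrp1, Plxna2, Plxna4 and Sema6d) and 1 lower (Sema5a). The 8.95% and 12.2% of all genes are for the main rule over all 3 libraries. The shares under these alternatives are not given, so these last counts have no background beside them.

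Among the secreted class 3 semaphorins, Sema3a, the classical repellent of cortical axons, was present in progenitors and neurons alike. In radial glia it stood at 41.0 (35.9 to 46.6), 17.2 (15.97 to 18.4) and 40.9 (38.4 to 43.5) CPM in label order. Radial glia labelled E16 were lowest, and those of the other libraries had overlapping intervals. Newborn neurons had 34.1 CPM labelled E14 and 20.9 CPM labelled E18, and cluster 11 had 14.3 CPM (11.3 to 17.8). Its highest level was outside the neural classes, at 130.4 CPM (113 to 149, from 209 UMIs) in the 112 meningeal or fibroblast cells. In neurons it passed 2-fold only in the library labelled E18, where radial glia were 2.39-fold (2.12 to 2.70) higher. In Cajal-Retzius cells, the Reln-expressing neurons of the surface, Sema3a had 6 UMIs (2.49 CPM).

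Sema3c, which can attract cortical axons, differed widely between groups of neurons. Newborn neurons had 88.7 CPM (83.3 to 94.3) labelled E14, 9.41 CPM (7.95 to 11.1) labelled E18, and cluster 11 had 21.6 CPM (17.9 to 25.8). Radial glia had 4.52 (2.95 to 6.62), 11.7 (10.7 to 12.8) and 1.88 (1.38 to 2.51) CPM. Neurons exceeded radial glia 7.44-fold (5.05 to 11.4) labelled E14 and 9.82-fold (7.23 to 13.6) labelled E18. In the library labelled E16 the log2 ratio was 0.83, under the 2-fold line.

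The other class 3 members were sparse. Sema3e, the Plxnd1 ligand, was highest in intermediate progenitors at 8.98 CPM (7.82 to 10.3), of which 176 of 214 UMIs fell in cluster 5 (18.1 CPM, 15.5 to 20.9). By label, intermediate progenitors had 16.9, 2.69 and 8.0 CPM of Sema3e. Sema3f peaked in choroid plexus at 16.7 CPM (13.1 to 20.9), where label E16 gave 10.5 CPM (7.09 to 15.01) and label E18 gave 27.45 CPM (20.02 to 36.7), so either library alone moves this level by over 1.5 times. Sema3b, Sema3d and Sema3g stayed under 10 CPM in every class, with 21, 13 and 6 UMIs in the class where each was highest.

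Class 4 semaphorins are membrane ligands of class B plexins among others. Sema4c was found in all neural classes, with 26.2, 17.8 and 19.8 CPM in radial glia and 57.8 CPM (55.5 to 60.2) in neurons labelled E14. Its neuron to radial glia ratio was 2.20-fold (1.87 to 2.62) there and under the 2-fold line in the other libraries (log2 ratios 0.88 and 0.83). Sema4g stood at 3.997, 1.48 and 3.23 CPM in radial glia and at 13.6, 12.6 and 15.5 CPM in neurons in label order. The ratios were 3.40-fold (2.24 to 5.41), 8.54-fold (6.005 to 12.2) and 4.82-fold (3.76 to 6.23). Sema4d, which binds Plxnb1, had 32.2 CPM (20.2 to 48.8, 22 UMIs in 29 cells) in microglia, its highest class over all libraries together, and 42.6 CPM (39.4 to 45.9) in newborn neurons labelled E18. In neurons it passed 2-fold over radial glia only in the library labelled E18, at 40.8 CPM (38.1 to 43.6) against 9.57 CPM (8.38 to 10.9). Sema4a was likewise highest in microglia, at 26.4 CPM (15.6 to 41.7, 18 UMIs). Sema4b and Sema4f peaked at 14.5 and 7.46 CPM, both in Cajal-Retzius cells.

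The class 5 semaphorins, which carry thrombospondin repeats, were the 2 members at least 2-fold higher in radial glia than in neurons in every library. Sema5a stood at 40.8 (35.8 to 46.4), 40.0 (38.2 to 41.9) and 38.3 (35.9 to 40.8) CPM in radial glia. Neurons had 2.50 (2.03 to 3.04), 8.22 (5.998 to 11) and 2.87 (2.20 to 3.68) CPM. The radial glia levels had overlapping intervals in all 3 libraries, and were 16.4-fold (12.9 to 20.9), 4.87-fold (3.62 to 6.70) and 13.4-fold (10.3 to 17.6) that of neurons. Intermediate progenitors lay between, at 18.7, 28.3 and 27.3 CPM. Sema5b stood at 33.2, 27.9 and 30.2 CPM in radial glia and 5.19, 8.77 and 7.96 CPM in neurons. The ratios of radial glia to neurons were 6.39-fold (5.22 to 7.82), 3.18-fold (2.39 to 4.34) and 3.79-fold (3.21 to 4.50). Intermediate progenitors again lay between for Sema5b, at 23.5, 21.7 and 18.9 CPM.

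Class 6 semaphorins are membrane ligands of class A plexins and can also act as receptors. Sema6d had 8.17 (6.001 to 10.9), 2.53 (2.08 to 3.04) and 2.66 (2.05 to 3.39) CPM in radial glia. In newborn neurons it had 109 (103 to 115) under label E14 and 133 (128 to 139) CPM under label E18, with 48.4 CPM (42.8 to 54.6) in cluster 11. Maturing neurons were back at 16.2 CPM for label E14 and 13.4 for label E18. Intermediate progenitors had 16.6 CPM for label E14 and 9.04 for label E18, so at this clustering newborn neurons had the highest level of the lineage in both libraries. The gap to maturing neurons depended on where those classes were split, as values computed after seeing the data show. At clustering resolution 0.5, newborn and maturing neurons labelled E14 had 106 and 35.4 CPM, and those labelled E18 had 111 CPM (103 to 119) and 91.7 CPM (87.1 to 96.5). With the stricter cell filter the order turned for label E18, at 52.9 CPM (46.1 to 60.4) in newborn and 92.9 CPM (84.2 to 102) in maturing neurons. Over all excitatory neurons the ratio to radial glia was 5.26-fold (3.94 to 7.18), 19.2-fold (15.3 to 24.1) and 37.7-fold (29.5 to 49.0). Outside the lineage, Sema6d had 289 CPM (245 to 338) in mural cells and 184 CPM (157 to 215) in endothelial cells.

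Sema6c stood at 3.13, 1.63 and 1.47 CPM in radial glia and 35.4, 26.5 and 25.3 CPM in neurons, or 11.3-fold (7.15 to 19.2), 16.2-fold (12.2 to 21.8) and 17.2-fold (12.3 to 24.8) higher. Its highest class was the GABAergic lineage, the interneurons and their precursors, at 49.0 CPM (37.8 to 62.4). Sema6b was 4.23-fold (2.74 to 6.88) and 4.13-fold (2.84 to 5.92) higher in neurons labelled E14 and E16 and was under the 5 CPM minimum labelled E18. Maturing neurons held its highest level, 17.1 CPM (15.8 to 18.6).

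Sema6a marked other cells. It stood at 300.1 CPM (279 to 323) in Cajal-Retzius cells, with 305 CPM labelled E16 and 314 CPM labelled E18. Endothelial cells had 441 CPM (399 to 487) and choroid plexus 99.9 CPM (90.9 to 110). At a fixed depth of 2000 UMIs per cell, Sema6a was seen in 41.1% (34.5 to 47.9) of Cajal-Retzius cells and 0.746% (0.0189 to 4.09) of erythroid cells, the class used as background. Without thinning these shares were 84.9% and 16.4%, at median depths of 9689 and 32327 UMIs. In excitatory neurons and radial glia Sema6a was low and its direction differed by library: 11.5 against 28.8 CPM labelled E14, 34.9 against 21.4 CPM labelled E16 and 8.70 against 10.7 CPM labelled E18. The neurons labelled E16 in this comparison are cluster 11, with the Cajal-Retzius marker sum given above. The part of that in the difference was not tested. Sema7a, the lipid-anchored member, reached 25.8 CPM (16.4 to 38.7) in endothelial cells and 2.21 and 2.58 CPM in newborn and maturing excitatory neurons over all libraries.

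**Figure D1:**
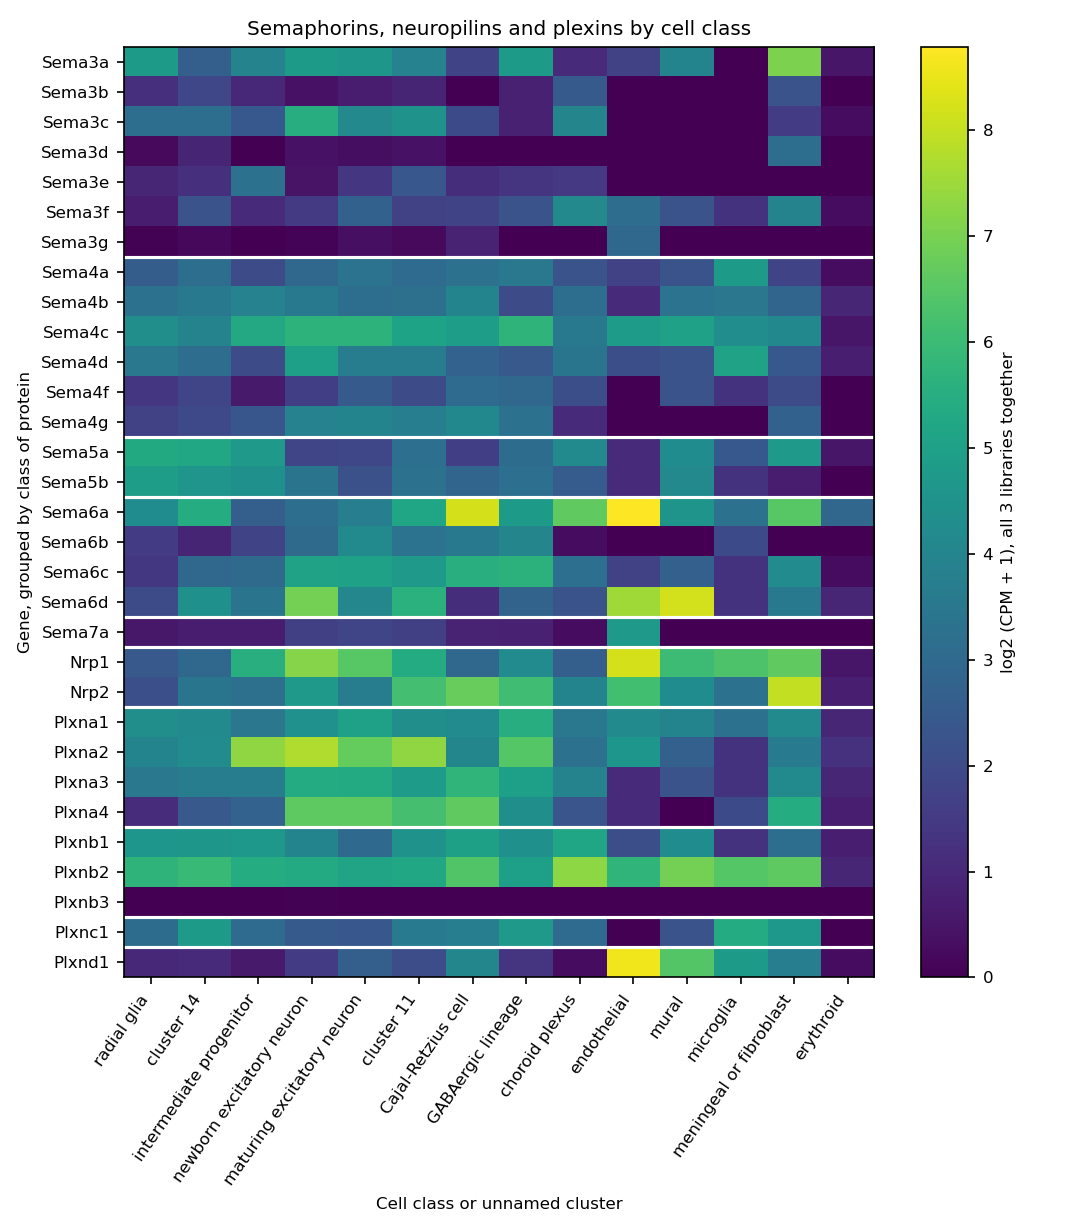
Level of each of the 31 members (rows, grouped by class of protein) in the named cell classes and the unnamed clusters 11 and 14 (columns), as log2 of CPM + 1 over all 3 libraries together. Bright cells stand out for Sema6a and Plxnd1 in endothelial cells (441 and 390 CPM), Sema6a in Cajal-Retzius cells (300.1 CPM), Sema6d in mural cells (289 CPM) and Nrp2 in meningeal or fibroblast cells (254 CPM).

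Among the receptors, the neuropilins separated neurons from radial glia. Nrp1, which binds Sema3a and also the growth factor VEGF-A, stood at 10.4 (7.96 to 13.4), 4.38 (3.79 to 5.04) and 3.23 (2.56 to 4.03) CPM in radial glia. In excitatory neurons it stood at 141 (137 to 145), 41.5 (36.3 to 47.2) and 64.8 (61.4 to 68.2) CPM. The ratios were 13.5-fold (10.5 to 17.7), 9.46-fold (7.78 to 11.5) and 20.1-fold (15.98 to 25.5). In intermediate progenitors Nrp1 had 12.6 CPM labelled E14, 80.4 CPM labelled E16 and 47.1 CPM labelled E18. Those labelled E14 overlapped radial glia of that label within counting error, while those labelled E16 exceeded cluster 11. Cajal-Retzius cells held only 6.63 CPM (3.79 to 10.8, 16 UMIs) of Nrp1, and endothelial cells 296 CPM (262 to 334).

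Nrp2, which prefers Sema3f, had 1.56 (0.715 to 2.97), 3.42 (2.90 to 4.01) and 3.80 (3.07 to 4.66) CPM in radial glia. Neurons had 18.0 (16.7 to 19.3), 66.2 (59.5 to 73.3) and 18.8 (17.0 to 20.7) CPM. The ratios were 11.5-fold (6.02 to 25.2), 19.3-fold (15.96 to 23.5) and 4.94-fold (3.94 to 6.26). Among these groups cluster 11 was highest. Under the stricter cell filter Nrp2 was the 1 gene of the 8 that no longer met the rule. Outside this lineage Nrp2 had 107 CPM (94.7 to 121) in Cajal-Retzius cells and 67.8 CPM (54.5 to 83.3) in the GABAergic lineage. Nrp1 had 18.1 CPM (11.6 to 26.9) in the latter. Meningeal or fibroblast cells had the highest Nrp2 level, 254 CPM (230 to 280.0).

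Class A plexins carry the signal of neuropilin-bound and class 6 semaphorins. Plxna4, a receptor for Sema3a, had the widest gap of the 8 members higher in neurons: 3.48 (2.12 to 5.37), 0.358 (0.205 to 0.581) and 2.04 (1.52 to 2.70) CPM in radial glia against 101 (97.5 to 104), 72.5 (65.6 to 80.0) and 91.2 (87.2 to 95.3) CPM in neurons. The ratios were 28.9-fold (18.7 to 47.4), 203-fold (123 to 358) and 44.6-fold (33.7 to 60.3). The ratio labelled E16 rests on 16 UMIs in radial glia. Intermediate progenitors had only 6.19, 4.13 and 6.22 CPM of Plxna4.

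Plxna2 followed another course along the lineage. It stood at 24.2 (20.3 to 28.5), 10.9 (9.95 to 11.9) and 19.7 (18.0 to 21.5) CPM in radial glia. Intermediate progenitors already had 84.0, 212 and 173 CPM of Plxna2, and newborn neurons 196 CPM labelled E14 and 224 CPM labelled E18. Neurons exceeded radial glia 5.27-fold (4.45 to 6.28), 14.8-fold (13.2 to 16.6) and 10.1-fold (9.15 to 11.1). Plxna2 was thus raised in intermediate progenitors of every library, where Plxna4 stayed under 7 CPM.

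Plxna3 had 13.2, 8.59 and 13.2 CPM in radial glia and 39.4, 28.1 and 42.9 CPM in neurons. Its ratios of 2.98-fold (2.37 to 3.81), 3.28-fold (2.70 to 3.96) and 3.24-fold (2.85 to 3.69) had overlapping intervals in all libraries. Plxna1 was at the 2-fold line in the library labelled E14, with 27.4 CPM in neurons and 13.2 CPM in radial glia, a ratio of 2.07-fold (1.64 to 2.65) and a log2 ratio of CPM + 1 of 0.998. Its log2 ratios were -0.15 and 0.54 in the other libraries. It was highest in the GABAergic lineage at 43.7 CPM (33.2 to 56.5).

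None of the class B plexins and Plxnc1 passed 2-fold upwards in excitatory neurons in any library. Plxnb1, the Sema4d receptor, had 34.1 CPM (29.5 to 39.2) in radial glia against 8.54 CPM (7.66 to 9.49) in neurons labelled E14, 21.0 against 22.1 CPM labelled E16 and 26.4 against 13.6 CPM labelled E18. Plxnb2, a receptor of class 4 semaphorins, was highest in choroid plexus at 155 CPM (143 to 167) and had 0.913 CPM in erythroid cells and 30.1 CPM or more in each other named class. Its neuron to radial glia log2 ratios were -0.71, -0.43 and -0.58. Plxnb3 had 1 UMI in the 3088 newborn neurons, its highest class. Plxnc1, the Sema7a receptor, was highest in microglia at 41.0 CPM (27.3 to 59.3), and was 3.30-fold (2.54 to 4.25) and 2.31-fold (1.78 to 3.02) higher in radial glia than in neurons labelled E14 and E18. In the library labelled E16 it was higher in cluster 11, at 10.6 against 5.996 CPM.

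Plxnd1, the receptor that reads Sema3e in vessels, was high in vessel cells. It had 390 CPM (350 to 433, 347 UMIs) in the 26 endothelial cells and 85.1 CPM (62.3 to 113) in 36 mural cells, against 1.00 CPM (0.787 to 1.25) in radial glia and 3.83 CPM (3.35 to 4.35) in excitatory neurons. Under the 5 CPM minimum, neurons exceeded radial glia in Plxnd1 2.42-fold (1.07 to 6.75), 3.20-fold (1.74 to 5.62) and 6.65-fold (4.25 to 10.8) in label order, from 6, 46 and 23 UMIs in radial glia. At 2000 UMIs per cell Plxnd1 was seen in 53.8% (33.4 to 73.4) of endothelial cells and 0 of 134 erythroid cells, which allows a share of up to 2.72%. Maturing neurons labelled E18 had 15.6 CPM of Plxnd1 and those labelled E14 3.16 CPM (2.54 to 3.88). Endothelial markers summed to 1.91 to 2.38 CPM in radial glia and excitatory neurons of the 3 libraries, with 4 of 8 markers at 0 in radial glia labelled E14. The 26 endothelial cells came as 7, 16 and 3 per library, and the 7 labelled E14 had a median of 58889 UMIs against 12432.5 and 12993.

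**Figure D2:**
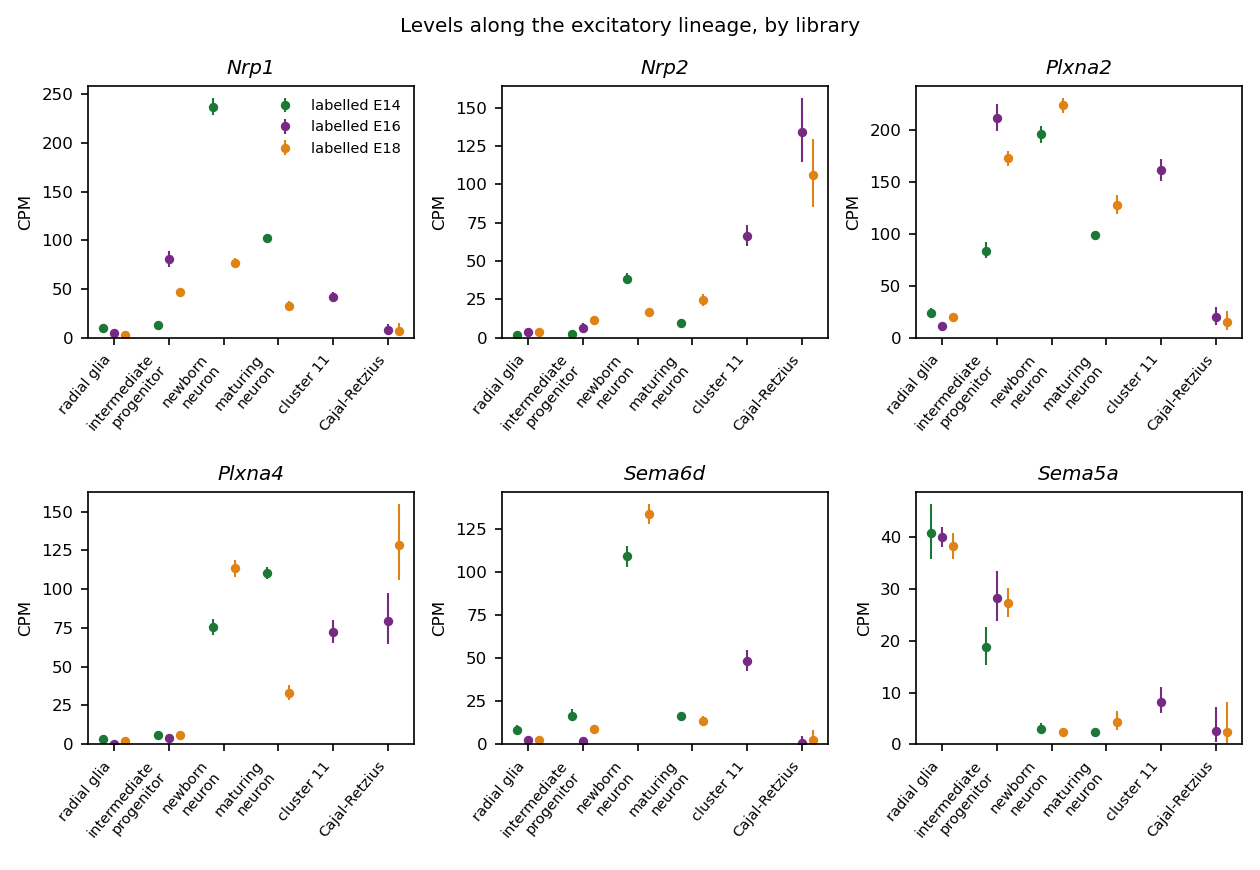
CPM (y axis, linear) of 6 members in radial glia, intermediate progenitors, newborn and maturing neurons, cluster 11 and Cajal-Retzius cells, one point per library with at least 20 cells of the class, with exact 95% Poisson intervals. Nrp1, Plxna2, Plxna4 and Sema6d are low in radial glia and high in newborn neurons, Nrp2 is highest in Cajal-Retzius cells, and Sema5a runs the other way (38.3 to 40.8 CPM in radial glia).

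The pathway around these receptors was described by a list of 40 co-receptors, partners and cytoplasmic effectors. Of the 33 listed genes that met the minimum in every library, 11 were at least 2-fold higher in neurons in all 3 and 2 were lower, beside the same 8.95% and 12.2% of all genes. The 3 with the highest median ratio were the adhesion molecules Cntn2, L1cam and Chl1. L1cam, the partner of Nrp1 in Sema3a receptors, had 4.52, 0.515 and 0.940 CPM in radial glia and 81.7, 49.3 and 75.1 CPM in neurons. Cntn2 exceeded radial glia 18.4-fold (14.3 to 23.97), 135-fold (97.1 to 194) and 115-fold (88.6 to 154), and Chl1 11.6-fold (9.76 to 14), 62.3-fold (38.5 to 106) and 124-fold (97.7 to 159). Among the effectors, the collapsin response mediators Crmp1, Dpysl3 and Dpysl5, the GTPase Rnd2, and the kinases or activators Cdk5, Cdk5r1, Pak1 and Pip5k1c made up the other 8. The lowest median ratios were those of Rras, a GTPase that plexins switch off, Erbb2, which partners class B plexins, and Tln1, an integrin activator. Rras had 25.9, 15.5 and 24.7 CPM in radial glia and 0.599, 4.20 and 1.57 CPM in neurons. Tln1 had a median log2 ratio of -2.71 and was lower in neurons in every library. Erbb2 had 12.2, 10.9 and 8.42 CPM in radial glia and 3, 4 and 4 UMIs in neurons, and did not meet the minimum in every library.

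Neuropilins have no signalling domain of their own and pair with class A plexins in the receptor for class 3 semaphorins. At 2000 UMIs per cell, at least 1 UMI of a neuropilin and 1 of a class A plexin were seen in 0.200% (0.0962 to 0.368) of radial glia and 2.85% (2.18 to 3.66) of intermediate progenitors. The share was 12.6% (11.4 to 13.8) of newborn and 8.46% (7.37 to 9.65) of maturing excitatory neurons. Counted singly, neuropilins were seen in 24.6% of newborn and 16.7% of maturing neurons, and class A plexins in 49.3% and 38.6%. Whether both fell in the same cells more often than these single shares give was not tested. Erythroid cells, the background class, had 0 of 134, which allows up to 2.72%. By label, newborn neurons had 16.5% (14.5 to 18.6) labelled E14 and 9.63% (8.29 to 11.1) labelled E18, and cluster 11 had 6.53% (4.69 to 8.82) of its cells labelled E16. Maturing neurons had 9.34% (8.1 to 10.7) labelled E14 and 4.05% (2.33 to 6.49) labelled E18. Intermediate progenitors had 0.849% (0.232 to 2.16), 2.86% (1.48 to 4.94) and 3.63% (2.65 to 4.84) in label order. Radial glia stayed at or under 0.290% in each library. The radial glia values, those of intermediate progenitors in every library and together, and that of maturing neurons labelled E18 have intervals that reach under the limit the erythroid count allows, so at this depth they were not told apart from erythroid cells. Without thinning the shares were 5.01% of radial glia, 28.3% of intermediate progenitors, 48.3% of newborn neurons, 47.3% of maturing neurons and 0.746% of erythroid cells, whose median depth was 32327 UMIs against 13265 in radial glia.

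Radial glia were then compared between libraries. The class was made of clusters 6, 12 and 13 in the libraries labelled E14 and E18 and of clusters 1, 3 and 8 in that labelled E16. Of the barcodes labelled E14, 25.9% were over the mitochondrial maximum, against 12.6% labelled E16 and 12.1% labelled E18, and the part of this in the comparisons with label E14 was not tested. Between labels E16 and E14, 7 of 16 members tested differed at least 2-fold, beside 9.79% of all genes. Nrp1, Plxna2, Plxnc1, Sema3a and Sema6d were lower labelled E16, and Sema3c and Sema4d were higher. Nrp1 was 2.38-fold (1.75 to 3.19) higher labelled E14, Plxna2 2.22-fold (1.82 to 2.68), Plxnc1 2.64-fold (2.06 to 3.36), Sema3a 2.39-fold (2.06 to 2.77) and Sema6d 3.23-fold (2.25 to 4.58). Sema3c was 2.59-fold (1.75 to 4.002) and Sema4d 2.48-fold (1.69 to 3.81) higher labelled E16. The median log2 ratio was -0.48 for the members and -0.12 for all genes. With TMM scaling, which moved the median of all genes to 0.10, only Plxnc1 (lower), Sema3c and Sema4d (higher) were still counted. A gene was counted only where it met both the 5 CPM minimum and the 2-fold line. Sema6d, at 2.53 CPM labelled E16 and 8.17 CPM labelled E14 before scaling, averaged close to that minimum. Sema3c and Sema4d in turn fell under 2-fold with the mean over cells (log2 ratios 0.79 and 0.88), Sema4d with the stricter cell filter (0.97) and Sema3c with clustering per library (0.98).

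Fewer members differed in the other pairs of radial glia. Between labels E18 and E14, 3 of 15 were lower labelled E18 and 0 were higher, beside 4.28% of all genes: Nrp1 was 3.23-fold (2.27 to 4.57), Sema6a 2.70-fold (2.21 to 3.30) and Sema6d 3.07-fold (2.07 to 4.54) higher labelled E14. With TMM scaling the median of all genes moved from -0.06 to 0.11, Sema6d was no longer counted and Sema4d was. Sema6d, at 2.66 CPM labelled E18 and 8.17 CPM labelled E14 before scaling, averaged close to the 5 CPM minimum. Whether it missed that minimum or the 2-fold line is not given. Between labels E18 and E16, 2 of 15 differed, beside 2.71%: Sema3a was 2.38-fold (2.17 to 2.62) higher labelled E18, and Sema3c was 6.22-fold (4.60 to 8.61) higher labelled E16. With the stricter cell filter the log2 ratio of Sema3a was 0.59, under 2-fold, and Sema6a passed it. Markers of maturing neurons summed to 421 CPM in radial glia labelled E14, 95.9 CPM in those labelled E16 and 147 CPM in those labelled E18, with 0 of the 11 markers at 0 in any of them. Intermediate progenitor markers summed to 1356, 546 and 734 CPM, and radial glia markers to 9530, 4150 and 5852 CPM. Markers of cortical hem summed to 1.216, 37.8 and 13.8 CPM, and those of choroid plexus to 2.085, 12.4 and 38.8 CPM. The part of hem and choroid plexus transcripts in the comparisons was not tested. Nrp1, Plxna2 and Sema6d, which are high in neurons, were likewise highest in radial glia labelled E14, and the part of these neuronal transcripts in the result was not tested. With doublets removed at 2 times the rate, Nrp1 and Sema6d were no longer counted in either comparison with label E14.

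In newborn excitatory neurons, cluster 11 against label E14 gave 6 of 22 members, beside 9.52% of all genes. Nrp1 was 5.72-fold (4.99 to 6.57), Sema3c 4.11-fold (3.40 to 5.02), Sema3a 2.39-fold (1.87 to 3.09) and Sema6d 2.25-fold (1.97 to 2.58) higher labelled E14. Sema6a was 3.53-fold (2.78 to 4.49) and Sema5a 2.87-fold (1.79 to 4.65) higher in cluster 11. At clustering resolution 0.5, Nrp1 (log2 ratio -0.91) and Sema5a were no longer counted, and Nrp2 and Plxna4 were. With the looser cell filter Sema3c (log2 ratio -0.996) and Sema5a (0.63) fell under 2-fold and Nrp2 passed it. With the mean over cells Sema5a was no longer counted and Nrp2 was. Radial glia markers summed to 544 CPM in cluster 11, against 353 CPM in newborn neurons labelled E14 and 371 CPM in those labelled E18. Intermediate progenitor markers summed to 1972, 1552 and 1096 CPM in the same order. Mural markers summed to 95.8, 6.25 and 10.2 CPM, with 3 of the 7 (Rgs5, Kcnj8 and Abcc9) at 0 in cluster 11. The mural list includes Ndufa4l2, a leading gene of cluster 11, and a leading gene had at least 50 CPM in its cluster. Sema5a, which is high in radial glia and intermediate progenitors, was likewise highest in cluster 11. The part of radial glia, intermediate progenitor and mural transcripts in the result was not tested. Between labels E18 and E14, where both groups are named newborn neurons (clusters 4 and 9 against 2 and 20), 4 of 20 differed, beside 3.49%. Sema4d was 3.38-fold (2.82 to 4.08) higher labelled E18. Sema3c was 9.43-fold (7.92 to 11.3), Nrp1 3.08-fold (2.88 to 3.30) and Nrp2 2.31-fold (1.97 to 2.70) higher labelled E14. Nrp2 rested on cluster 20: cluster 2, the other newborn cluster of label E14, had 14.98 CPM (12.5 to 17.8), against 16.6 CPM (14.7 to 18.8) in newborn neurons labelled E18. Nrp2 no longer passed 2-fold with the looser cell filter, at clustering resolution 2, with clustering per library or with the mean over cells. Its direction turned with the looser filter and with clustering per library. These differences depended on where newborn and maturing neurons were split. At clustering resolution 0.5 the log2 ratios of E18 over E14 were 0.40 for Nrp1, 0.75 for Nrp2 and 0.95 for Sema4d, and that of Sema3c was -1.73. Over newborn and maturing neurons together, Sema3c had 33.6 CPM (31.8 to 35.4) for label E14 and 18.5 (16.7 to 20.4) for label E18, and maturing neurons labelled E18 had 42.2 CPM (37.1 to 47.7).

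Between label E18 and cluster 11, 7 of 22 members differed, beside 5.65%. Sema4d, at 42.6 against 11.7 CPM, and Sema6d, at 133 against 48.4 CPM, were higher labelled E18. Nrp2, Plxnc1, Sema3c, Sema5a and Sema6a were higher in cluster 11, from 2.29-fold (1.78 to 2.94) for Sema3c to 5.14-fold (4.04 to 6.59) for Sema6a. At clustering resolution 0.5 Nrp2, Sema3c and Sema4d were no longer counted, and with the stricter cell filter Nrp2, Plxnc1, Sema4d and Sema5a were not. Sema3c fell under 2-fold, and Nrp1 passed it, with the looser cell filter (log2 ratio of Sema3c -0.88) and at resolution 2. Sema5a was no longer counted with the mean over cells. Plxna4 and Plxna2 stayed within 2-fold in all 3 newborn neuron pairs, with log2 ratios from -0.06 to 0.64 and from -0.28 to 0.47, except that Plxna4 passed 2-fold between cluster 11 and label E14 at resolution 0.5.

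**Figure D3:**
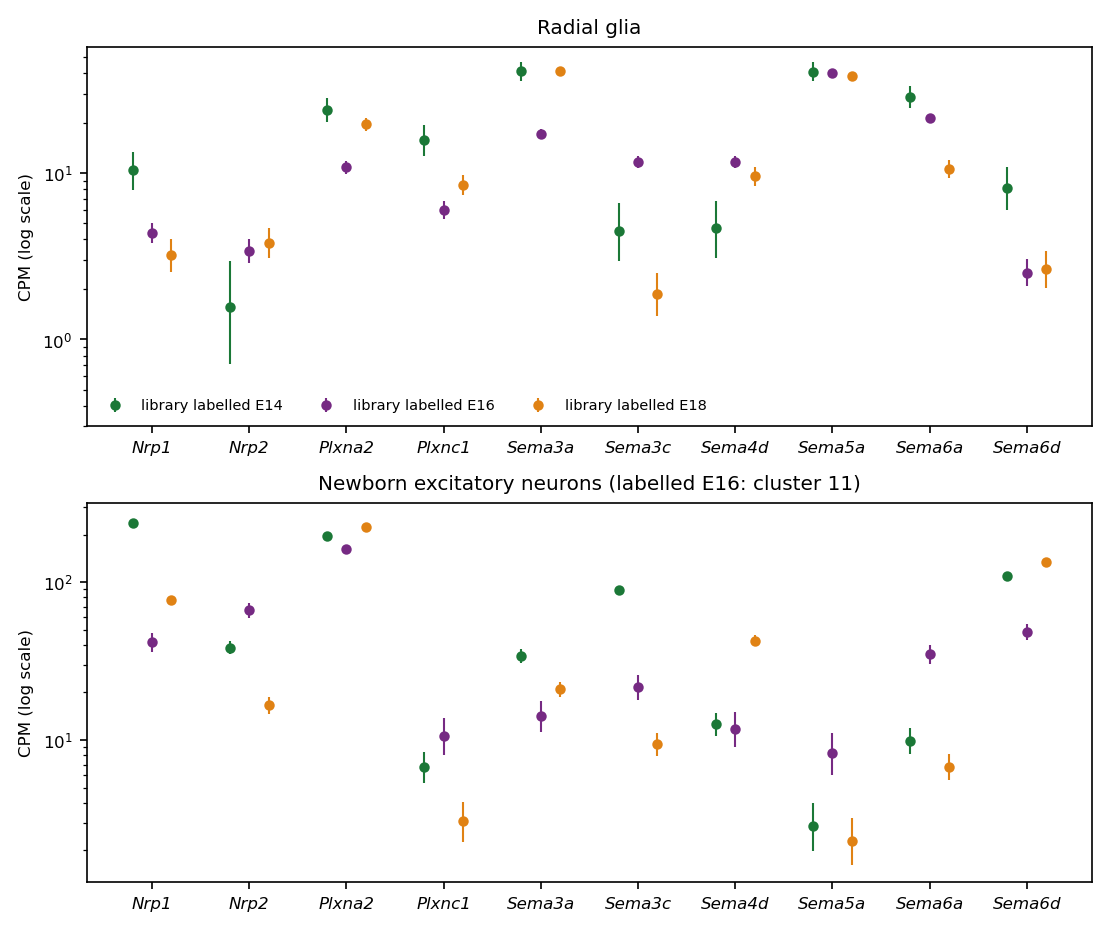
CPM (y axis, log scale) of 10 members by library in radial glia (top) and in newborn excitatory neurons, with cluster 11 for the library labelled E16 (bottom); bars are exact 95% Poisson intervals. In radial glia Sema3a is low labelled E16 (17.2 CPM) and Sema5a is level across libraries; in neurons Sema3c runs from 9.41 to 88.7 CPM.

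Within a library, the clusters of excitatory neurons also differed in their semaphorin genes, and those described here were chosen after their values were seen. Of the maturing neurons of the library labelled E14, most were in cluster 0 (1271 cells, 1256 of them labelled E14) and cluster 7 (721 cells, 715 of them labelled E14). Bcl11b and Fezf2, factors of deep-layer neurons, stood at 88.8 and 86.8 CPM in cluster 0 and at 718 and 415 CPM in cluster 7. Plxna4 was at 183 CPM (176 to 189) in cluster 0 and 10.7 CPM (8.89 to 12.7) in cluster 7. Nrp1 was at 146 CPM (140.2 to 152) and 37.3 CPM (33.9 to 40.9) in the same order. Sema3a was at 40.8 CPM (37.8 to 44.0) and 8.73 CPM (7.13 to 10.6), and Sema6d at 23.8 CPM (21.6 to 26.3) and 5.79 CPM (4.51 to 7.33). Plxna2 had overlapping intervals, at 98.2 CPM (93.5 to 103) and 99.4 CPM (93.8 to 105). The Sema3a receptor genes Nrp1 and Plxna4 and their ligand Sema3a were all higher in cluster 0 than in cluster 7.

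Cluster 20, 195 newborn neurons all labelled E14 and led by Crym and Sema3c, held 202 CPM (185 to 219) of Sema3c. These 195 cells gave 579 of the 1022 Sema3c UMIs of newborn neurons labelled E14, and cluster 2 alone, with 1145 cells, had 51.0 CPM (46.4 to 56.0). Nrp2 was at 107 CPM (95.6 to 120) in cluster 20 and 14.98 CPM (12.5 to 17.8) in cluster 2, and Nrp1 at 287 CPM (267 to 307) and 222 CPM (212 to 232). Sema3a was at 8.01 CPM (5.08 to 12.02) in cluster 20 and 43.7 CPM (39.4 to 48.3) in cluster 2. Among clusters labelled E18, cluster 16 (389 cells, 382 of them labelled E18), also led by Crym, had the highest Sema3c level, 55.1 CPM (49.3 to 61.5), against 6.74 CPM in cluster 4 and 14.1 CPM in cluster 9. Nrp2 was at 30.6 CPM (26.3 to 35.5) in cluster 16 and 3.82 CPM (2.71 to 5.25) in cluster 4. Sema4d was at 57.4 CPM (52.8 to 62.3) in cluster 4, 36.8 CPM (32.0 to 42.0) in cluster 16 and 16.9 CPM (13.7 to 20.6) in cluster 9. Plxna4 was at 150.5 CPM (143 to 158) in cluster 4, 47.0 CPM (41.5 to 52.9) in cluster 9 and 28.9 CPM (24.8 to 33.6) in cluster 16. Cluster 9, led by the early neuronal factor Neurod1, had 315 CPM (300.4 to 330) of Plxna2.

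**Figure D4:**
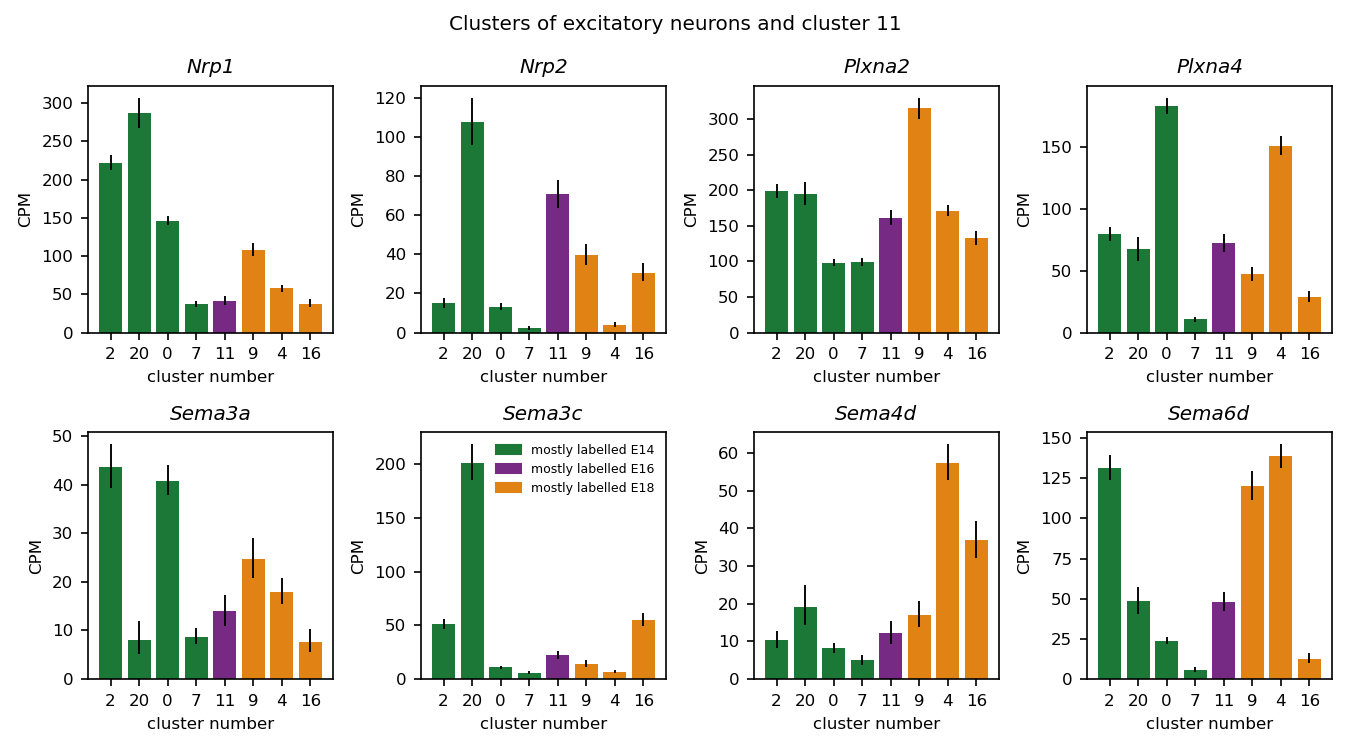
CPM of 8 members (bars, with exact 95% Poisson intervals) in each cluster of excitatory neurons and in cluster 11, coloured by the library most of its cells came from; bars start at 0. Clusters 0 and 4 stand out for Plxna4 (183 and 150.5 CPM), cluster 20 for Sema3c and Nrp2 (202 and 107 CPM) and cluster 9 for Plxna2 (315 CPM).

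By highest class over all libraries together, 21 of the 31 members reached 20 CPM in a class of at least 20 cells. Of these, 4 were highest in endothelial cells (Nrp1, Plxnd1, Sema6a and Sema7a), 3 in microglia (Plxnc1, Sema4a and Sema4d) and 3 in the GABAergic lineage (Plxna1, Sema4c and Sema6c). Choroid plexus (Plxnb1 and Plxnb2), meningeal or fibroblast cells (Nrp2 and Sema3a), Cajal-Retzius cells (Plxna3 and Plxna4), newborn neurons (Plxna2 and Sema3c) and radial glia (Sema5a and Sema5b) had 2 each, and mural cells had 1 (Sema6d). Microglia, mural and endothelial cells were 29, 36 and 26 in all, so these values rest on few cells. The order also rests on pooling libraries whose levels differ. Newborn neurons labelled E18 had more Sema4d (42.6 CPM) than microglia, and those labelled E14 more Sema4c (66.5 CPM) than the GABAergic lineage (52.0 CPM). Plxna4 in Cajal-Retzius cells, at 97.8 CPM (85.8 to 111), overlapped newborn neurons (97.3 CPM), and Sema3c labelled E18 was higher in maturing than in newborn neurons. Meningeal or fibroblast and choroid plexus cells came only from the libraries labelled E16 and E18.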

How the data were processed

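Droplet libraries of 3′ ends were made with 10x chemistry, and the authors deposited filtered matrices of UMI counts per gene and cell barcode, made with Cell Ranger 6.0.1 against the rat genome build mRatBN7.2, per the submitters' processing notes. Values are raw counts. The members and gene lists were chosen with earlier results of these data known. Cells with under 1000 genes or over 10% mitochondrial UMIs were dropped. Scrublet in scanpy 1.11.5 removed 158, 216 and 259 likely doublets in label order, at an assumed rate of 0.8% per 1000 cells. Cells were clustered by Leiden (igraph 0.11.9, leidenalg 0.10.2) at resolution 1, with 15 neighbours in 30 principal components of 2000 variable genes, from which member, pathway and stage genes were left out. A cluster took the name of the class whose markers were raised, with at least 3 raised, and stayed unnamed where its leading genes went against that name, which left 2 of 26 unnamed. Where fewer than 100 cells of a class were in a library, the unnamed cluster with that class as its candidate stood in.

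Within a library, the UMIs of a gene were added up over the cells of a class and scaled to 1000000 UMIs of that class. A gene was compared where the average of both groups was at least 5 CPM, and counted where log2 of CPM + 1 differed by at least 1. With 1 library per label these are differences between libraries, with no test. Level intervals are exact Poisson, ratio and share intervals Clopper-Pearson, at 95%. They cover counting error only, and for a count of 0 the upper end of the exact interval is given. Shares of cells were taken after thinning each cell to 2000 UMIs. Members were written out with values where they reached 20 CPM in a class of at least 20 cells or passed 2-fold between neurons and radial glia, and of the pathway genes the 3 with the highest and the 3 with the lowest median ratio. The calculations were checked on simulated counts. Alternatives were another cell filter, resolution, doublet rate, clustering per library, minimum CPM, TMM scaling (edgeR 4.0.16 in R 4.3.3) and a mean over cells. Promoters are from RefSeq, GRCr8. Calculations used scipy 1.17.1 and numpy 2.4.6 under Python 3.11.15, with scikit-learn 1.9.0, pandas 2.3.3 and matplotlib 3.10.9.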

Additional observations from a re-analysis of the deposited data

Results flagged for a closer look

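For 2 members the difference between excitatory neurons and radial glia had counting intervals on one side of no difference in the libraries labelled E14 and E18 and on the other side in that labelled E16. The log2 ratio of Plxnc1 was -1.54 and -1.02 in the former and 0.73 in the latter, and that of Sema6a was -1.25 and -0.27 against 0.68. The ratios of Plxnb1 (-1.88 and -0.91 against 0.07) and Plxna1 (0.998 and 0.54 against -0.15) also differed in sign, with intervals labelled E16 that include no difference. The neurons labelled E16 are cluster 11, which also held 354 CPM of Cajal-Retzius markers, and Sema6a had 305 CPM in the Cajal-Retzius cells of that library. The difference between libraries was not tested.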

How the results depend on the processing

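All 8 members higher in neurons and both lower ones in every library stayed so under the looser cell filter, clustering resolutions 0.5 and 2, doublets removed at 2 times the rate, clustering per library, no CPM minimum, TMM scaling and the mean over cells. Added were Sema3c (looser filter, clustering per library, mean over cells) and Sema6b (no minimum) among the higher, and Plxnb1 (clustering per library) among the lower. The stricter cell filter lost Nrp2, and a minimum of 20 CPM left 4 higher and 1 lower. The comparisons between libraries moved more. For radial glia labelled E16 against E14 the count of members past 2-fold was 3 with the stricter filter, 1 at 20 CPM, 11 with no minimum, 3 with TMM scaling and 4 with the mean over cells. For E18 against E14 it was 1 with doublets removed at 2 times the rate, 0 at 20 CPM and 5 with no minimum. For E18 against E16 it was 1 at 20 CPM. In newborn neurons it was 4 for E18 against E16 with the stricter filter and 4 at 20 CPM, and 1 for E18 against E14 at resolution 0.5. The numbers tested and the shares of all genes counted at these settings are not given here, so these counts have no background beside them. The log2 ratio of Nrp2 in newborn neurons, E18 over E14, changed sign to 0.076 with the looser filter, 0.75 at resolution 0.5 and 0.59 with clustering per library, and that of Nrp1 to 0.40 at resolution 0.5. The cause was not tested. TMM scaling moved the median log2 ratio of all genes from -0.19 to 0.09 in neurons over radial glia labelled E14. The stricter filter left 104 excitatory neurons labelled E14, of 3311, and 0 newborn ones, of 1334. Newborn neurons labelled E16 against E14 and E18 against E14 were not run with the stricter filter, nor E16 against E14 and E18 against E16 with clustering per library. No paired analysis was possible because each label has 1 library.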

Other observations

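Cluster 14, an unnamed cluster of 514 cells of which 444 were labelled E16, was led by Fgf17, Fgf8 and Zic4. Its Nrp1 level was 6.74 CPM (4.91 to 9.01), and at 2000 UMIs per cell 1 of 509 of its cells held a neuropilin together with a class A plexin. In choroid plexus, Plxnb2 had 121 (109 to 134) under label E16 and 214 (192 to 237) CPM under label E18, and Sema6a had 125 CPM (112 to 139) and 56.1 CPM (45.2 to 68.8).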
